A study of Homo sapiens with 4 samples.

Results

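The RAB, ARF and ARL genes were followed in LS180, an established line of human colon carcinoma, on 4 arrays that differed in RBM35A state and RNA fraction. Members were all genes of the HG-U95Av2 array annotation whose symbol was RAB with a number and an optional letter, or began with ARF or ARL and a digit. This gave 39 of 8225 genes: 30 RAB, 4 ARF and 5 ARL genes, read by 56 probe sets. Of these, 37 encode GTPases. The other 2 members are ARL2BP, a binding partner of ARL2, and ARL6IP5, an endoplasmic reticulum membrane protein that interacts with small GTPase machinery.

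RBM35A, now called ESRP1, is an epithelial RNA-binding protein that regulates splicing, and the study asked how its expression alters total and polysomal mRNA. RBM35A+ cells carried a Tet-off RBM35A construct that restored the protein, and had been out of doxycycline for 6 days or more. RBM35A− cells, called parental in the labels, were kept in doxycycline, and whether they carried the construct is not stated. Each state gave 1 total RNA array (TRIZOL extraction) and 1 polysomal RNA array (sucrose gradient, RNA of transcripts loaded with several ribosomes), so the 4 groups had 1 array each and no replicates. The RBM35A state cannot be told apart from doxycycline exposure, nor the fraction from its extraction method. Values are log2 levels, and with single arrays no difference between the states could be checked against replicates.

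Small GTPases of the Rab and Arf families are molecular switches of membrane traffic. In the GTP-bound form they sit on a particular membrane and recruit coats, tethers and motor adaptors, and in the GDP-bound form they are released from it. Rab proteins are held on membranes by prenyl groups at the C-terminus and Arf proteins by a myristoyl group at the N-terminus. In polarized intestinal epithelium they direct the sorting of cargo to the apical and basolateral surfaces, the recycling of receptors and junction proteins, and the release of mucin granules.

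The cells carried the markers of their label: 11 of 12 intestinal epithelial markers were measured, at levels from 6.54 to 13.86, against 0 of 6 blood cell markers on the array. Of 7 fibroblast and endothelial markers 1 was measured, COL1A1, at 4.38 to 5.58. No probe set (0) was annotated to RBM35A or ESRP1, so RBM35A itself could not be checked on these arrays. The polysomal arrays had less signal at the 5′ ends of control transcripts. For beta-actin the 5′ signal was 9.42 in RBM35A+ and 10.29 in RBM35A− polysomal RNA (difference −0.86), but 14.75 in RBM35A+ and 14.79 in RBM35A− total RNA. At the 3′ end of beta-actin the polysomal difference was −0.02. Where each probe set lies along its transcript was not used here.

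A value under 5 was treated as not measured and raised to 5, and a gene was analysed when at least 1 array reached 5. This left 25 of the 39 members, and 3588 genes in all. For 21 of the 25 all 4 values were at 5 or more. The 14 members below 5 on all 4 arrays read 2.22 to 4.52, and 10 of them stayed under 3 throughout. They include the regulated secretion GTPases RAB3A, RAB3B and RAB27B, the endosomal GTPases RAB11B, RAB31 and RAB35, and RAB28 and ARL3, which are known for work at cilia. The remaining 6 were the Golgi-associated RAB6B, RAB30, RAB33A and RAB36, and the ubiquitin ligase adaptors RAB40A and RAB40C. The 5 probe sets that name ARF1, RAB4B, RAB6A or RAB40 genes together with another symbol were left out by the rule. Where a gene had several probe sets, the one of highest average level stood for it.

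**Figure D1:**
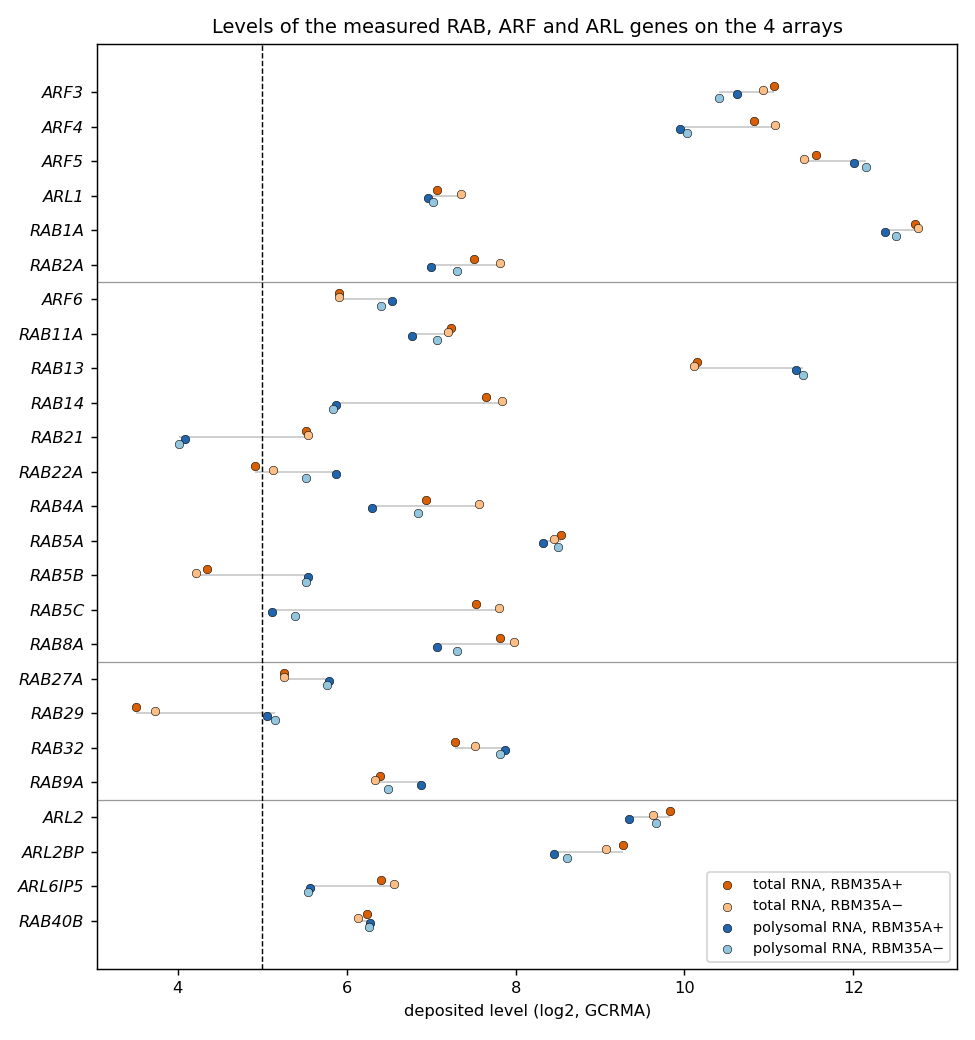
Deposited level (log2, x axis) of each of the 25 measured RAB, ARF and ARL genes on the 4 arrays, grouped by role from top to bottom (ER and Golgi; endosome and plasma membrane; late endosome, lysosome and regulated secretion; tubulin, cilium and others). Grey lines join the lowest and highest value of a gene and the dashed line marks 5. The 2 RBM35A states lie close together for most genes, while the fractions lie apart for RAB5C, RAB14 and RAB13.

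RAB4A, the GTPase of fast recycling from early endosomes, was the 1 member whose representative probe set was at least 1.5-fold lower in RBM35A+ total RNA. Its representative probe set, 621_at, read 6.94 in RBM35A+ and 7.57 in RBM35A− total RNA, and 6.30 in RBM35A+ and 6.84 in RBM35A− polysomal RNA. The RBM35A+ array was thus the lower one in both fractions. The difference was −0.63 in total RNA (1.55-fold lower) and −0.54 in polysomal RNA (1.45-fold lower). Disagreement between probe sets of 1 gene gives a measure of error: over 339 genes with at least 2 fully measured probe sets, a single probe set varied with an SD of 0.188 in total and 0.195 in polysomal RNA. It covers probes, not cultures.

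The other probe sets of RAB4A lay nearer to 0. Probe set 39244_at read 6.20 in RBM35A+ and 6.45 in RBM35A− total RNA, and 6.28 in RBM35A+ and 6.51 in RBM35A− polysomal RNA, which gives −0.25 and −0.23. Probe set 1686_g_at read 5.54 in RBM35A+ and 5.58 in RBM35A− total RNA, and 5.01 in RBM35A+ and 4.97 in RBM35A− polysomal RNA, with differences of −0.04 and 0.01. The remaining one, 1685_at, was below 5 on all 4 arrays, at 3.27 to 3.58. The size of the RAB4A difference therefore depended on the probe set. With the mean of its 3 measured probe sets, 1685_at left out, RAB4A was at −0.31 in total RNA and thus under 1.5-fold. Its polysomal mean was −0.25 with values raised to 5 first and −0.24 without.

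The promoter of RAB4A is shown for the member whose representative probe set had the lowest values in both fractions, beside that of RAB8A, whose probe sets also lay lower in both. Each line gives the 250 bases before the start site on the plus strand, from RefSeq on GRCh38.p14, 5′ to 3′. Capitals mark CACGTG, the E-box, and GGGCGG, the GC box, each searched on both strands (on the other strand the GC box reads CCGCCC).
RAB4A, chr1:229270861-229271110: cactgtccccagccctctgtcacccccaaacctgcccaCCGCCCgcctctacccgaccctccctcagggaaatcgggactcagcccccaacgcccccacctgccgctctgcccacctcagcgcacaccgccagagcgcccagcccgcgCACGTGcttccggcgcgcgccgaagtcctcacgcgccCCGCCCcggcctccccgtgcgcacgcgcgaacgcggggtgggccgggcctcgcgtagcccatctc
RAB8A, chr19:16111639-16111888: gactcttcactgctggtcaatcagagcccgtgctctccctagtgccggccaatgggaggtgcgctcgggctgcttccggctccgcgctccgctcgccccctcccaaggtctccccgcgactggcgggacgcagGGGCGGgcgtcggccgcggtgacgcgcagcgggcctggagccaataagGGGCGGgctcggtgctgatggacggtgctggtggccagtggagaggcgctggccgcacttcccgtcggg
The RAB4A window held 1 E-box, which began 102 bases before the start, and 2 GC boxes. The RAB8A window held 0 E-boxes and 2 GC boxes. Their GC contents were 75.2% and 72.4%, against a median of 58% over 27305 promoters. An E-box was found in 6 of the 33 members with a promoter in the table (18.2%), against 6.49% of all promoters, and a GC box in 29 of 33 (87.9%), against 42.3%. The 27305 promoters were not limited to the 8225 genes of the array from which the members came, so the sets are unlike. The members' promoters were also richer in GC, with a median of 67.6%. Among the members with an E-box, ARL2 was at 0.21 in total and −0.32 in polysomal RNA, and RAB5A at 0.07 and −0.17. RAB21 was at −0.02 in total RNA with no polysomal value, and ARL3 and RAB31 were below 5. A match is a run of letters and says nothing of factor binding in these cells.

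Over the family, the RBM35A differences were small and ran in both directions. In total RNA 0 of 23 members with a value were 1.5-fold higher and 1 was 1.5-fold lower, where 1.54% and 0.663% of all genes were. The median was −0.02 (range −0.63 to 0.21), against 0.00 over all genes, with 10 members above 0 and 12 below. In polysomal RNA 0 of 24 were 1.5-fold higher and 0 were 1.5-fold lower, where 0.767% and 1.3% of all genes were. The median there was −0.08 (range −0.54 to 0.39), against 0.02 over all genes, with 10 members above 0 and 14 below. With so few members, 1 gene decides each of these counts. They also rest on the choice of probe set, as RAB8A was 1.73-fold lower in total RNA at 35339_at, which did not represent it. In RNA from whole cultures, fewer cells with a transcript and less of it per cell cannot be told apart.

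**Figure D2:**
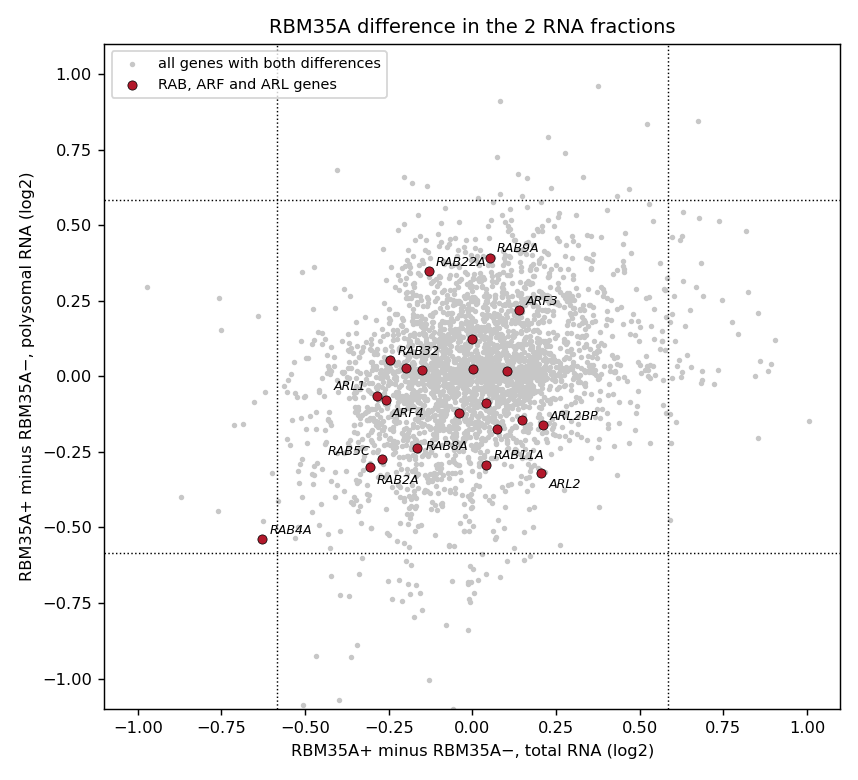
RBM35A+ minus RBM35A− difference in total RNA (x axis, log2) and polysomal RNA (y axis, log2) for the 22 members with both values (red) and all other genes (grey). Dotted lines mark 1.5-fold, and 6 genes lie outside the plotted range. By representative probe sets, RAB4A alone among the members passes a dotted line, at −0.63 and −0.54.

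Of the 22 members with a value in both fractions, 7 were below 0 in both (26.2% of all genes were) and 4 above 0 in both (33% of all genes were). Below 0 in both were RAB4A, RAB2A, RAB5C, RAB8A, RAB1A, ARF4 and ARL1. In 3 of them, RAB4A, RAB2A and RAB5C, both differences were larger than the SD of 1 probe set, as in 5.03% of all genes. With the trend on the polysomal minus total difference removed, RAB5C was at −0.17 in total and −0.14 in polysomal RNA, both under that SD. For 0 members were both differences above 0 by that much, against 5.35% of all genes. Above 0 in both were ARF3, RAB9A, RAB40B and RAB27A.

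An additive model of RBM35A state and RNA fraction, fitted with limma over 3588 genes, left 1 residual degree of freedom. Its p-values set the mean difference against the disagreement between the fractions, with the error estimate shared in part across all genes. They do not measure whether a difference would recur in other cultures. It called 0 members and 0 genes (0% of all genes) at an adjusted p of 0.05. RAB4A had a mean difference of −0.58 (SE 0.102, lower on both pairs of arrays) with adjusted p = 0.369 in limma. This was the smallest adjusted p over all genes, and the adjustment gave the same value to other genes. By its difference, RAB4A ranked 15 from the lowest among 3320 genes in total RNA and 55 among 3391 in polysomal RNA. At an unadjusted p under 0.05 there were 3 of 25 members, RAB4A, RAB2A and RAB5C, all lower in RBM35A+ cells, where 10.3% of all genes passed. RAB5C was not among them with the trend on the polysomal minus total difference removed or with a floor of 6. With probe sets of shared sequence left out, RAB2A was below 5 on all arrays, and these members were RAB1A, RAB4A and RAB5C. RAB2A had a mean difference of −0.30 (SE 0.100) and RAB5C of −0.27 (SE 0.100), each with adjusted p = 0.442 in limma.

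Among the GTPases of the ER and Golgi, 6 of 10 members were measured, 0 of them at 1.5-fold, where 1.54% of all genes or fewer were on either side. The medians were −0.15 for total and −0.10 for polysomal RNA. RAB2A, which acts between the ER and the Golgi, read 7.50 in RBM35A+ and 7.81 in RBM35A− total RNA, and 7.0 in RBM35A+ and 7.30 in RBM35A− polysomal RNA. Both differences were close to −0.30, so the gap between the states was alike in the fractions (−0.31 and −0.30). These values come from 623_s_at, a probe set of shared sequence. The other RAB2A probe set, 32581_at, read 2.23 to 2.35 on the arrays. RAB1A, needed for ER to Golgi transport, was at −0.04 and −0.12. The coat-recruiting Golgi GTPase ARF4 read 10.82 in RBM35A+ and 11.08 in RBM35A− total RNA, and 9.95 in RBM35A+ and 10.03 in RBM35A− polysomal RNA, which gives −0.26 and −0.08. ARL1, which recruits golgins at the trans-Golgi, was at −0.29 and −0.06. ARF3, a close relative of ARF1 at the trans-Golgi, went the other way. It read 11.07 in RBM35A+ and 10.93 in RBM35A− total RNA, and 10.62 in RBM35A+ and 10.41 in RBM35A− polysomal RNA, or 0.14 and 0.22. ARF5 was at 0.15 in total and −0.15 in polysomal RNA.

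Of the 14 endosomal and plasma membrane members, 11 were measured, with medians of −0.08 in total and −0.13 in polysomal RNA. Beside RAB4A, the early endosome fusion GTPase RAB5C was lower in both fractions: 7.54 in RBM35A+ and 7.81 in RBM35A− total RNA, and 5.11 in RBM35A+ and 5.38 in RBM35A− polysomal RNA, a difference of −0.27 in each. The representative probe set of its paralog RAB5A was at 0.07 and −0.17, and another one, 600_at, at −0.40 in total RNA with both polysomal values below 5. RAB5B was below 5 in total RNA and at 0.02 in polysomal RNA. RAB11A, of the recycling endosome, was at 0.04 in total and −0.29 in polysomal RNA. RAB22A, an early endosomal GTPase, read 4.91 in RBM35A+ and 5.13 in RBM35A− total RNA, and 5.87 in RBM35A+ and 5.52 in RBM35A− polysomal RNA. Its polysomal difference of 0.35 was the second highest in the family, while its total RNA difference of −0.13 includes a value raised to 5. RAB13, of tight junction traffic, was at 0.04 and −0.09, RAB14 at −0.20 and 0.03, and RAB21, of integrin endocytosis, at −0.02 in total RNA only. ARF6, which acts at the plasma membrane, was at 0.00 and 0.12.

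Of 8 late endosomal, lysosomal and regulated secretion members, 4 were measured. RAB9A, which returns receptors from late endosomes to the trans-Golgi, read 6.39 in RBM35A+ and 6.34 in RBM35A− total RNA, and 6.88 in RBM35A+ and 6.49 in RBM35A− polysomal RNA. The states were thus alike in total RNA (0.05) and apart in polysomal RNA (0.39), the highest polysomal difference of the family and below 1.5-fold. RAB32, of lysosome-related organelles, was at −0.25 in total and 0.05 in polysomal RNA. RAB27A, which docks secretory lysosomes, was at 0.00 and 0.02, and RAB29, which recruits the kinase LRRK2, at −0.10 in polysomal RNA with both total RNA values below 5.

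In the remaining group 4 of 7 members were measured. ARL2, a regulator of tubulin folding, read 9.83 in RBM35A+ and 9.63 in RBM35A− total RNA, but 9.34 in RBM35A+ and 9.66 in RBM35A− polysomal RNA. The RBM35A+ array was the higher one in total RNA (0.21) and the lower one in polysomal RNA (−0.32). Its partner ARL2BP was at 0.21 in total and −0.16 in polysomal RNA, the latter smaller than the SD of 1 probe set (0.195). These directions, above 0 in total and below 0 in polysomal RNA, were found in 6 of 22 members and in 550 of 3123 genes. ARL6IP5 was at −0.15 and 0.02, and the ubiquitin ligase adaptor RAB40B at 0.10 and 0.02.

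The difference between the polysomal and the total RNA difference stayed under 1.5-fold for all 22 members with a value, where 1.02% of all genes were above it on the positive side and 2.4% on the negative side. The median was 0.01, as against 0.00 over all genes. The lowest were ARL2 (−0.53), ARL2BP (−0.37) and RAB11A (−0.33), and the highest RAB22A (0.48, with 1 raised value), RAB9A (0.34) and RAB32 (0.30). The SD of 1 probe set for this quantity was 0.239, and no test was possible.

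For 4 members at least 2 probe sets were measured, and these give a view within the gene. RAB8A, which drives polarized exocytosis to the apical surface, read 7.82 in RBM35A+ and 7.98 in RBM35A− total RNA with its representative probe set 35340_at, and 7.07 in RBM35A+ and 7.31 in RBM35A− polysomal RNA. The differences were −0.17 and −0.24. Its other probe set, 35339_at, read 7.53 in RBM35A+ and 8.32 in RBM35A− total RNA, and 4.30 in RBM35A+ and 5.47 in RBM35A− polysomal RNA. This probe set was 1.73-fold lower in total RNA (−0.79) and at least 1.39-fold lower in polysomal RNA, where the RBM35A+ value lay below 5. With both probe sets raised to 5 where lower and then averaged, RAB8A was at −0.48 in total and −0.36 in polysomal RNA. Averaged before the floor, with the unmeasured 4.30, the polysomal value was −0.70.

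The same 2 probe sets of RAB8A also differed between the fractions. Polysomal minus total RNA was −0.74 in RBM35A+ and −0.67 in RBM35A− cells at 35340_at, but −2.53 in RBM35A+ cells, where a raised value makes this a lower bound in size, and −2.84 in RBM35A− cells at 35339_at. RAB5A showed a like arrangement. Probe set 600_at read 5.27 in RBM35A+ and 5.67 in RBM35A− total RNA (−0.40) and lay below 5 in polysomal RNA, at 2.60 in RBM35A+ and 3.18 in RBM35A− cells, whereas 36110_at read 8.53 in RBM35A+ and 8.46 in RBM35A− total RNA, and 8.33 in RBM35A+ and 8.50 in RBM35A− polysomal RNA. For RAB1A, probe set 1074_at had polysomal minus total values of −1.17 in RBM35A+ and −0.97 in RBM35A− cells and RBM35A differences of −0.18 and −0.37. The RAB1A probe sets 34392_s_at (−0.04 and −0.12) and 34393_r_at (0.03 and −0.16) had RBM35A differences nearer to 0 and polysomal minus total values between −0.35 and 0.08. Thus in RAB8A, RAB5A and RAB1A the probe set with the larger drop from total to polysomal RNA also had the lower RBM35A difference in total RNA. Only 4 members could be looked at in this way, and the share of all genes with such an arrangement was not counted. In RAB4A the 2 probe sets with a drop, 621_at and 1686_g_at, had the lowest and the highest RBM35A difference. Beside this stand the lower 5′ control signals of polysomal RNA and, between its arrays, the beta-actin 5′ difference of −0.86; their part in these results was not tested.

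**Figure D3:**
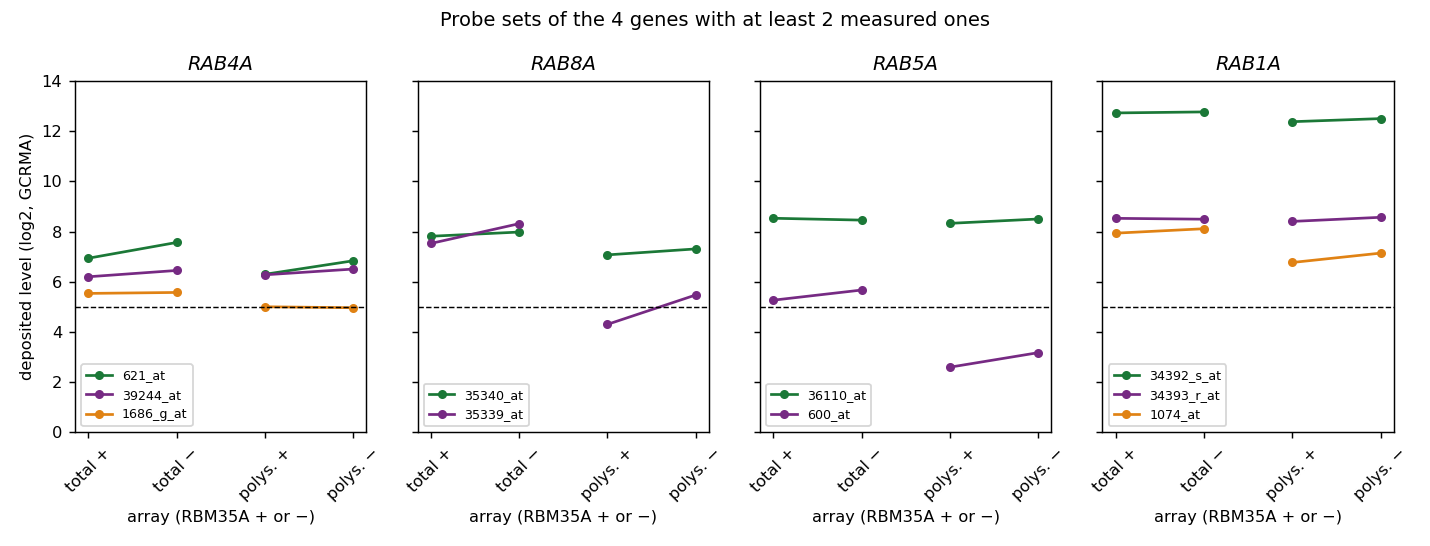
Deposited level (log2, y axis) of each measured probe set of RAB4A, RAB8A, RAB5A and RAB1A on the 4 arrays (x axis), with a line joining the RBM35A+ and RBM35A− arrays of a fraction and a dashed line at 5. The lines of 621_at (RAB4A) and 35339_at (RAB8A) climb toward RBM35A− in both fractions more steeply than those of the other probe sets of these genes.

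Polysomal RNA was then set beside total RNA within each state, as a description, because the sorted values differ between the fractions but not within them, as separate normalization would leave them. In RBM35A+ cells 1 of 25 members was 2-fold higher in polysomal RNA and 2 were 2-fold lower, where 14.4% and 8.06% of all genes were. In RBM35A− cells 1 was 2-fold higher and 4 were 2-fold lower, where 14% and 8.02% of all genes were. The median was −0.35 in RBM35A+ and −0.13 in RBM35A− cells, against 0.10 over all genes in each state. Over the 23 measured GTPases alone it was −0.20 in RBM35A+ and 0.03 in RBM35A− cells, and over the processing alternatives the RBM35A− median of all members reached −0.32. The SD of 1 probe set for the polysomal minus total difference was 0.732, so that single genes with smaller values cannot be told from 0. It covers probes, not cultures or preparations, and with 1 array a group larger values were not tested either. In 5 of 25 members the difference was larger than this SD, in the same direction, in both states, as in 29.6% of all genes.

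RAB13 was the 1 member at least 2-fold higher in polysomal RNA, at 1.17 in RBM35A+ and 1.30 in RBM35A− cells. Its polysomal arrays read 11.32 and 11.41 in RBM35A+ and RBM35A− cells, and its total RNA arrays 10.15 and 10.11. RAB5C had the largest drop, −2.42 in each state, and RAB14, of traffic between endosomes and the Golgi, followed with −1.78 in RBM35A+ and −2.0 in RBM35A− cells. RAB14 read 5.87 in RBM35A+ and 5.84 in RBM35A− polysomal RNA, but 7.64 in RBM35A+ and 7.84 in RBM35A− total RNA. ARF4 (−0.87 in RBM35A+ and −1.05 in RBM35A− cells) and ARL6IP5 (−0.85 in RBM35A+ and −1.02 in RBM35A− cells) passed 2-fold in RBM35A− cells alone; the difference between the states was not tested. The beta-actin 5′ control had polysomal minus total values of −5.32 in RBM35A+ and −4.51 in RBM35A− cells, and its 3′ control −0.27 and −0.30. The part of probe position in the values of RAB5C and RAB14 was not tested.

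**Figure D4:**
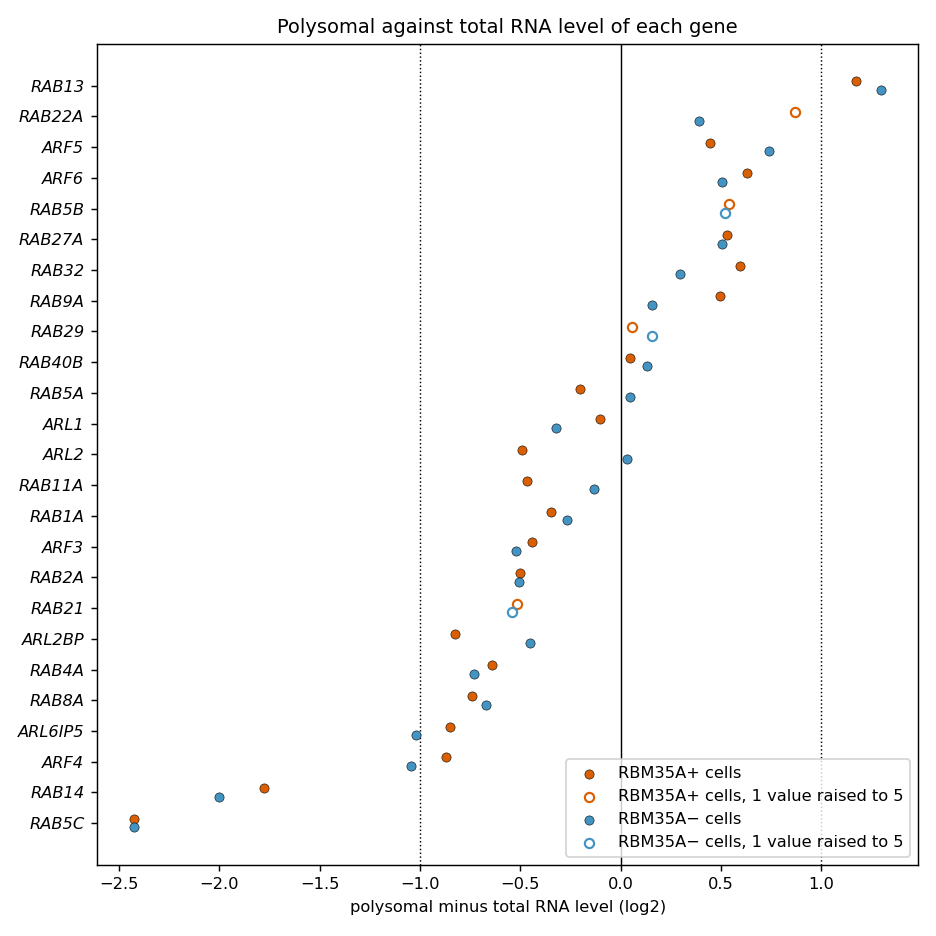
Polysomal minus total RNA level (x axis, log2) of the 25 measured members in RBM35A+ and RBM35A− cells, ordered by the mean of both; open symbols include a value raised to 5, and dotted lines mark 2-fold. RAB13 lies beyond the right line in both states and RAB14 and RAB5C beyond the left one.

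The partners of these GTPases were described by lists of the pathway. Of 7 measured genes for Rab prenylation and recycling, 11 exchange factors and GTPase-activating proteins and 9 effectors of Rab proteins, 0 reached 1.5-fold in either direction in total or polysomal RNA. Of all genes, 1.54% were 1.5-fold higher and 0.663% lower in total RNA, and 0.767% and 1.3% in polysomal RNA. A count of 0 in lists of this size lies near these shares, here and in the lists below. The list medians in total RNA were −0.09, −0.05 and −0.09, and in polysomal RNA 0.03, 0.00 and 0.03. By the mean of both differences, the highest and lowest genes of the prenylation and recycling list were RABAC1, a Rab acceptor of the Golgi (0.25 and 0.13), and RABIF, a chaperone of nucleotide-free Rab proteins (−0.43 and −0.15). By the same measure they were SGSM2 (0.10 and 0.21) and DENND4B (−0.45 and −0.01) among exchange factors and GTPase-activating proteins, and among effectors the Golgi matrix protein GOLGA2 (0.36 and 0.23) and optineurin, OPTN (−0.20 and −0.23).

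Of 19 measured exchange factors, GTPase-activating proteins and effectors of Arf and Arl proteins, 18 had a value in total RNA. Among these 1 was 1.5-fold higher and 0 were 1.5-fold lower, where 1.54% and 0.663% of all genes were, with a list median of 0.06. This was PSD4, an exchange factor for ARF6, which read 5.84 in RBM35A+ and 5.15 in RBM35A− total RNA (0.69), and 6.53 in RBM35A+ and 6.54 in RBM35A− polysomal RNA (−0.01). The polysomal minus the total difference was −0.70, past 1.5-fold, where 2.4% of all genes were on that side. In polysomal RNA 0 members of this list reached 1.5-fold and the median was 0.02.

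Coat proteins had 22 members with a value in each fraction, 0 at 1.5-fold, and medians of 0.07 in total and 0.04 in polysomal RNA. In total RNA 15 lay above 0 (68.2%, against 50.3% of all genes) and in polysomal RNA 17 (77.3%, against 56.4% of all genes). The clathrin adaptor subunit AP1B1, the highest by the mean of both differences, was at 0.26 and 0.29, and AP1S1 of the same complex, the lowest, at −0.25 and −0.10. SNAREs and fusion factors, which merge vesicles with their target, had 23 measured members, 0 at 1.5-fold, and medians of −0.09 in total and −0.07 in polysomal RNA. Their shares above 0 lay on the other side of those of all genes, with 7 of 22 in total RNA (31.8%) and 9 of 21 in polysomal RNA (42.9%). By the mean of both differences their highest and lowest were syntaxin STX1A (0.44 and −0.15) and the syntaxin-binding protein STXBP3 (−0.31 and −0.41). STX1A was past 1.5-fold in the polysomal minus the total difference (−0.59). In the other 5 lists 0 genes passed 1.5-fold by this measure. Tethering complexes and retromer had 12 measured members, 0 at 1.5-fold, and medians of 0.00 in both fractions. By the mean of both differences, the highest was TSG101, of the endosomal sorting machinery, at 0.14 and 0.11. The lowest was the retromer subunit VPS26A, at −0.15 and −0.13.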

How the data were processed

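Transcript levels were measured on 4 Affymetrix HG-U95Av2 arrays, 1 for each RBM35A state and RNA fraction, from 10 µg of RNA each per the labels' protocols. The deposited values are log2 levels per probe set; per the submitters' processing notes the authors used GCRMA, whose version and settings are not given in the sources used here. Sorted values differed by at most 4.29e-06 within the total RNA pair and 6.61e-06 within the polysomal pair, but by up to 0.227 between them, as a quantile normalization of each pair by itself would leave them; a shift of most genes within a pair would have been removed.

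Of 12626 probe sets, 67 were controls, 10943 had 1 symbol, 546 several and 1070 none. By gene ID, 10934 were matched to current symbols (RefSeq, GRCh38.p14). The number of arrays limits the precision. Members, lists and the rule for named genes (all measured members, every RAB4A probe set, and per list the genes at 1.5-fold or else the highest and lowest) were chosen with earlier results of these data known. A difference with 1 raised value is a lower bound in size, and one with 2 raised values was left out, except in limma, where it was 0. With 1 array a group no p-value was computed within a fraction. The additive model used limma 3.58.1 (lmFit and eBayes, Benjamini-Hochberg over all measured genes) in R 4.3.3. It was run on simulated data whose changes were larger than any mean difference of a member, so changes of the size seen here were not covered. Other work used Python 3.11.15 and pandas 2.3.3. Alternatives were other floors, the mean of the measured probe sets (floor applied after or before averaging), leaving out probe sets of shared sequence, removal of the trend on the polysomal minus total difference, joint quantile normalization, annotation symbols, a variance trend and no filter. The 37984_s_at probe set of ARF6 and those of RAB1A and RAB2A with the _s suffix can hybridize with related transcripts. The alternative without shared sequence dropped every probe set with the suffix _s, _f, _g, _x, _r or _i. It thus also left out 1686_g_at of RAB4A and 34393_r_at of RAB1A.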

Additional observations from a re-analysis of the deposited data

Results flagged for a closer look

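ARL2 had RBM35A differences of opposite sign in the fractions, each larger than the SD of 1 probe set (0.188 in total and 0.195 in polysomal RNA): 0.21 in total and −0.32 in polysomal RNA, so that the polysomal minus the total value was −0.53. By that value ARL2 ranked 101 from the lowest among 3123 genes. Only members were searched for such opposite differences, and the share of all genes with them was not counted. The ARL2 difference was not tested, as each group had 1 array, and ARL2 had a single measured probe set.

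The 5′ control probe set of 18S ribosomal RNA, which enters no comparison above, read 11.57 in total RNA of RBM35A+ cells, against 2.22 in total RNA of RBM35A− cells and 2.22 on both polysomal arrays. Its middle probe set read 3.21 in RBM35A+ and 2.59 in RBM35A− total RNA, and its 3′ probe set 2.22 on all arrays. All total RNA differences of RAB, ARF and ARL genes rest on this pair of arrays, and the part of this signal in them was not tested.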

How the results depend on the processing

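Against the values above, 89 of 92 family values under the alternatives kept their side of the threshold or moved by less than the SD of 1 probe set. That SD is a wide limit for a median of many genes, so the ranges of the medians below say more of them. The exceptions came when the measured probe sets of a gene were averaged: the count of members 1.5-fold lower became 0 in total RNA, as RAB4A was at −0.31, and 1 in polysomal RNA, as RAB8A was at −0.70. This RAB8A value includes 4.30, below the floor. With each probe set raised to 5 before averaging, an alternative chosen after seeing the data, RAB8A was at −0.36 and the counts were 0 in total and 0 in polysomal RNA. In the other 7 settings of these counts RAB4A was the 1 member 1.5-fold lower in total RNA. Family medians ranged from −0.06 to −0.02 in total RNA, −0.12 to −0.08 in polysomal RNA, −0.44 to −0.30 for polysomal minus total RNA in RBM35A+ cells and −0.32 to −0.13 in RBM35A− cells. The additive limma model called 0 members under its 11 alternatives, with 2 to 5 members at an unadjusted p under 0.05. The smallest adjusted p among members lay between 0.0577 (limma without a floor, where 15 genes but 0 members were called) and 0.5 (joint quantile normalization). Without a filter, limma warned that most residual variances were 0 and its fit unreliable. No paired analysis was possible because each group had 1 array and the labels give no replicate numbers; for the same reason no array could be left out. Signals near 5 limit RAB5B, RAB21, RAB22A and RAB29. They also limit RAB5C in polysomal RNA (5.11 in RBM35A+ and 5.38 in RBM35A− cells) and RAB27A in total RNA (5.26 in each state). Among the partner genes the same holds for PSD4 in RBM35A− total RNA (5.15).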

Other observations

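The values in this paragraph were picked after they were seen. Among the members below 5 on all 4 arrays, RAB31, of traffic from the trans-Golgi to endosomes, read 3.74 in RBM35A+ and 2.70 in RBM35A− total RNA at 33372_at, and 2.69 on both polysomal arrays. A further probe set of ARF6, 33152_at, read 2.89 in RBM35A+ and 3.66 in RBM35A− total RNA, and 2.29 on both polysomal arrays. RAB11B read 4.25 in RBM35A+ and 4.52 in RBM35A− total RNA, and 3.05 in RBM35A+ and 3.43 in RBM35A− polysomal RNA. All of these lie under the level taken as measured, and no fold is given.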
